A study of Caenorhabditis elegans with 80 samples.

Results

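Tubulins are the proteins that microtubules are built from, and this account follows 10 tubulin genes of Caenorhabditis elegans through exposure to acrylamide, cadmium or mercury. The genes were taken by symbol from the probe annotation: the α-tubulins tba-1, tba-2, tba-4, tba-9 and mec-12, the β-tubulins tbb-1, tbb-2, tbb-4 and mec-7, and the γ-tubulin tbg-1. They are 10 of 17118 genes named on the array and were read by 13 of its 22625 probe sets, 3 of them for tba-2 (A, B and C) and 2 for mec-7 (A and B). The suffix of 11 of the 13 marks possible cross-hybridization to related transcripts, and tba-4 and tba-9 were the exceptions. Whether the signal of the other genes includes that of similar tubulin transcripts was not tested. The remaining tubulin genes with a probe set, tba-5, tba-6, tba-7, tba-8, tbb-6 and ben-1, are described beside them.

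Microtubules are hollow polymers of α- and β-tubulin dimers, and they form the mitotic and meiotic spindles, the tracks of axonal transport and the core of cilia. γ-Tubulin is not part of the polymer wall but starts new microtubules at centrosomes and other organizing sites. In C. elegans some isotypes are made in nearly every dividing or growing cell, while others serve a few neurons: mec-12 and mec-7 form the wide microtubules of the touch receptor neurons, and tbb-4 and tba-9 are expressed in ciliated sensory neurons.

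Worms without bacteria, in the axenic medium CeHR, were synchronised by bleaching and exposed from the middle of the last larval stage, L4. The low, mid and high dose of acrylamide were 100, 500 and 1000 mg/L. Those of cadmium were 5, 20 and 50 mg/L, and mercury was given at 5, 10 and 25 mg/L. Each chemical had its own series with unexposed controls at 0, 4 and 8 h and exposed worms at 4 and 8 h, which gave 27 groups (9 of controls and 18 exposed) and 80 arrays. Groups had n = 3 arrays, and mid cadmium at 4 h had n = 2. No strain or transgene is named in the labels. Per the labels' protocols the 0 h control came from 1 flask, and nothing says whether its arrays were separate cultures, so p-values here measure only how far these samples differ, in part perhaps for technical reasons.

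Polyadenylated RNA of whole worms was measured, so fewer cells of a type and less RNA per cell cannot be told apart. Values are MAS5 signal, a linear intensity per probe set, with every array centred on a median of 202.9. Changes are log2 differences of signal plus 51, given with their standard error (SE), and folds are on that scale. Calls rest on an adjusted p under 0.05 from limma, with Benjamini-Hochberg adjustment over all probe sets tested. The arrays of a group correlated at 0.920 or more, except 0.831 between the 2 arrays of cadmium mid at 4 h, which stood apart from each other. Replicate 1 there gave a tbb-1 signal of 10701 and replicate 2 gave 3112, so that group is described by its arrays. Precision is limited by the number of arrays.

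The 5 general α- and β-tubulins exceeded the detection filter, a signal of 131, in every array. The group mean of tba-1, with tba-2 one of the main α-tubulins of dividing cells, ran from 2515 at high cadmium, 8 h, to 7494 in the acrylamide control at 0 h, a ratio of 2.98. The 3 probe sets of tba-2 spanned ratios of 2.71 to 3.25 between their lowest and highest group means. The lowest group was high acrylamide at 8 h for all 3.

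tba-4, another broadly made α-tubulin, had the widest span among the 13 probe sets. Its group mean fell from 4499 in the acrylamide control at 0 h to 677.5 at high acrylamide, 8 h, a ratio of 6.64. The β-tubulins of dividing cells, tbb-1 and tbb-2, spanned ratios of 3.72 and 2.93. Both were lowest at high acrylamide, 8 h, and both were highest in cadmium mid at 4 h, where the 2 arrays differed most.

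The neuronal isotypes lay nearer to the detection filter. tba-9 had a narrow span, from 185.6 in the cadmium control at 4 h to 352.5 in the mercury control at 8 h. tbb-4 ran from 132.4 to 402.9 and mec-12 from 125.5 to 451.1, and both exceeded 131 in 73 of 80 arrays. For mec-7, probe set B ran from 338.8 to 1132. Its probe set A exceeded 131 in 7 of 80 arrays and was tested in the cadmium series and over all arrays only.

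The γ-tubulin tbg-1 moved little. Its group means lay between 988.1 in cadmium mid at 4 h and 1966 at high mercury, 8 h, a ratio of 1.99. With groups ordered by their means, neighbouring groups overlapped in 26 of 26 pairs for each member probe set except probe set A of tba-2, with 25. The order of adjacent groups is thus within their spread.

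**Figure D1:**
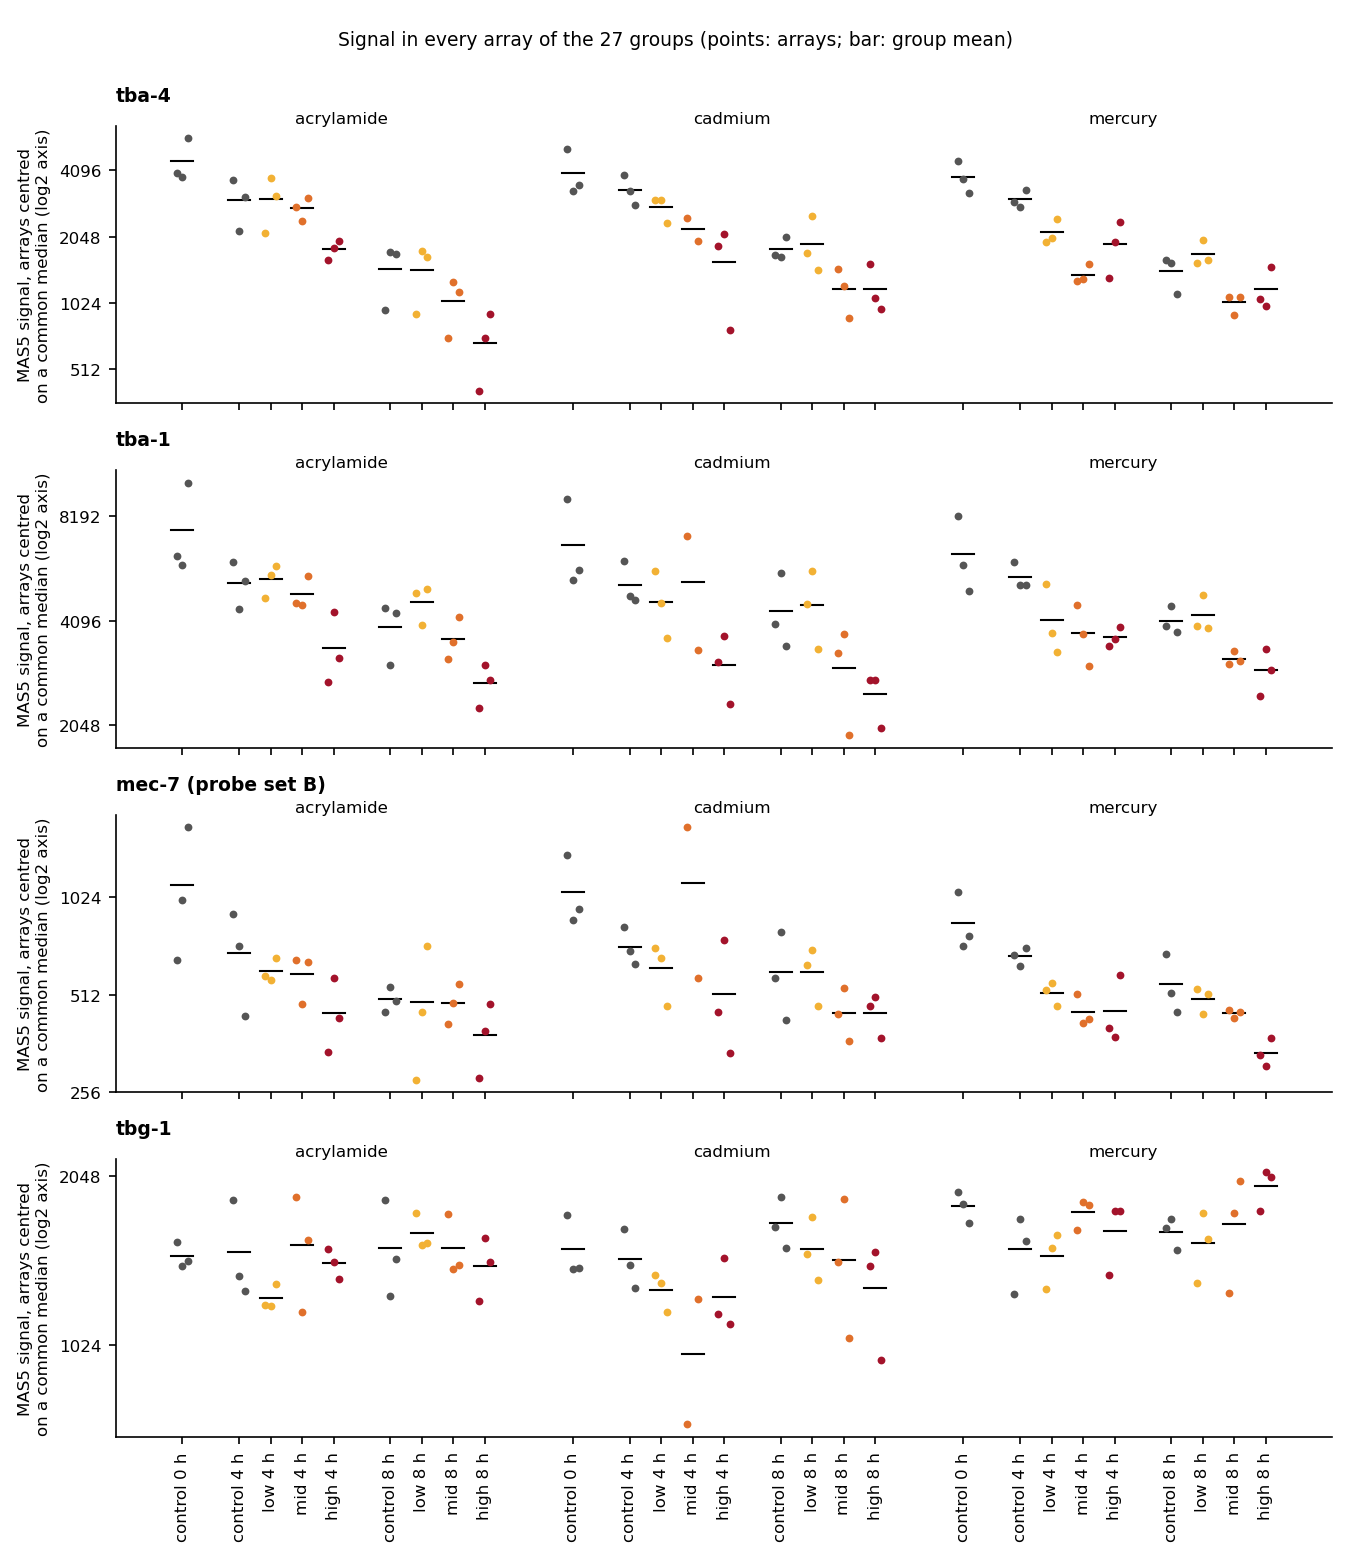
Signal of tba-4, tba-1, mec-7 (probe set B) and tbg-1 in every array (points) of the 27 groups, on a log2 axis, with bars at the group means. tba-4 falls from 4499 to 677.5 between its highest and lowest group, while tbg-1 stays between 988.1 and 1966.

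The first comparison asks how the tubulins changed in unexposed worms while the exposures ran. Over the 3 series, 10 of the 13 probe sets (8 of the 10 genes) were lower in the controls at 8 h than at 0 h and none was higher. Of all probe sets 35% were called lower and 16.1% higher (51% in either direction). All 5 general α- and β-tubulins and 3 of the 4 neuronal ones fell, and tba-9 and tbg-1 were not called. Under the authors' own scaling 4 probe sets fell and tbg-1 rose, under quantile normalization 8 fell and tbg-1 rose, and with arrays centred on the brightest 10% of probe sets 7 fell and tbg-1 rose.

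tba-4 changed most. Its signals in the acrylamide controls were 3969, 3804 and 5725 at 0 h and 950.5, 1741 and 1706 at 8 h. In the cadmium controls they were 5102, 3310 and 3500 at 0 h and 1696, 1651 and 2037 at 8 h. In the mercury controls they were 4501, 3737 and 3226 at 0 h and 1607, 1563 and 1129 at 8 h. The 8 h arrays lay below the 0 h arrays in all 3 series, with no overlap. The mean change was -1.37 (SE 0.16), or 2.58-fold lower, with adjusted p = 1.07e-10 in the limma fit of all arrays. The call for tba-4 held under all 14 alternative settings and in all 18 fits that left out 1 array.

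The other general isotypes fell less. tba-1 read 6305, 5948 and 10229 at 0 h and 4470, 3052 and 4306 at 8 h in the acrylamide controls, and 8182, 5949 and 4990 against 3970, 4528 and 3809 in the mercury controls. These groups do not overlap. Over the 3 series tba-1 changed by -0.70 (SE 0.14, adjusted p = 3.2e-05, limma) and tbb-2 by -0.67 (SE 0.15, adjusted p = 0.000121). The 3 probe sets of tba-2 changed by -0.67, -0.61 and -0.65, with SEs of 0.18, 0.15 and 0.17. The smallest called change was that of tbb-1, -0.45 (SE 0.17, adjusted p = 0.0236, limma). For tbb-1 the call was lost when any of 6 arrays was left out, which were replicate 2 of the acrylamide control at 8 h, replicate 3 of the cadmium and of the mercury control at 8 h, replicate 3 of the acrylamide control at 0 h, and replicate 1 of the cadmium and of the mercury control at 0 h. The changes of tbb-1 without them were -0.37, -0.41, -0.39, -0.35, -0.36 and -0.38.

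Among the neuronal isotypes, mec-12 read 420.1, 423.6 and 380.8 at 0 h and 295.7, 114.8 and 128.8 at 8 h in the mercury controls. In the acrylamide controls it read 246.5, 426.4 and 680.5 and then 102.1, 150 and 200.8. The groups were apart in both series, and they overlapped in the cadmium series, with 200.9 as the lowest at 0 h and 296 as the highest at 8 h. Over all series mec-12 changed by -0.88 (SE 0.15, adjusted p = 1.53e-06, limma).

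mec-7 (probe set B) changed by -0.79 (SE 0.16, adjusted p = 2.59e-05, limma), and its 3 acrylamide controls fell from 657.6, 1006 and 1688 to 453.9, 541.7 and 489.6. tbb-4 changed by -0.64 (SE 0.15, adjusted p = 0.000185). tba-9 changed by -0.05 (SE 0.12, adjusted p = 0.757) and tbg-1 by 0.01 (SE 0.11, adjusted p = 0.948). The dim mec-7 probe set changed by -0.20 (adjusted p = 0.255).

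**Figure D2:**
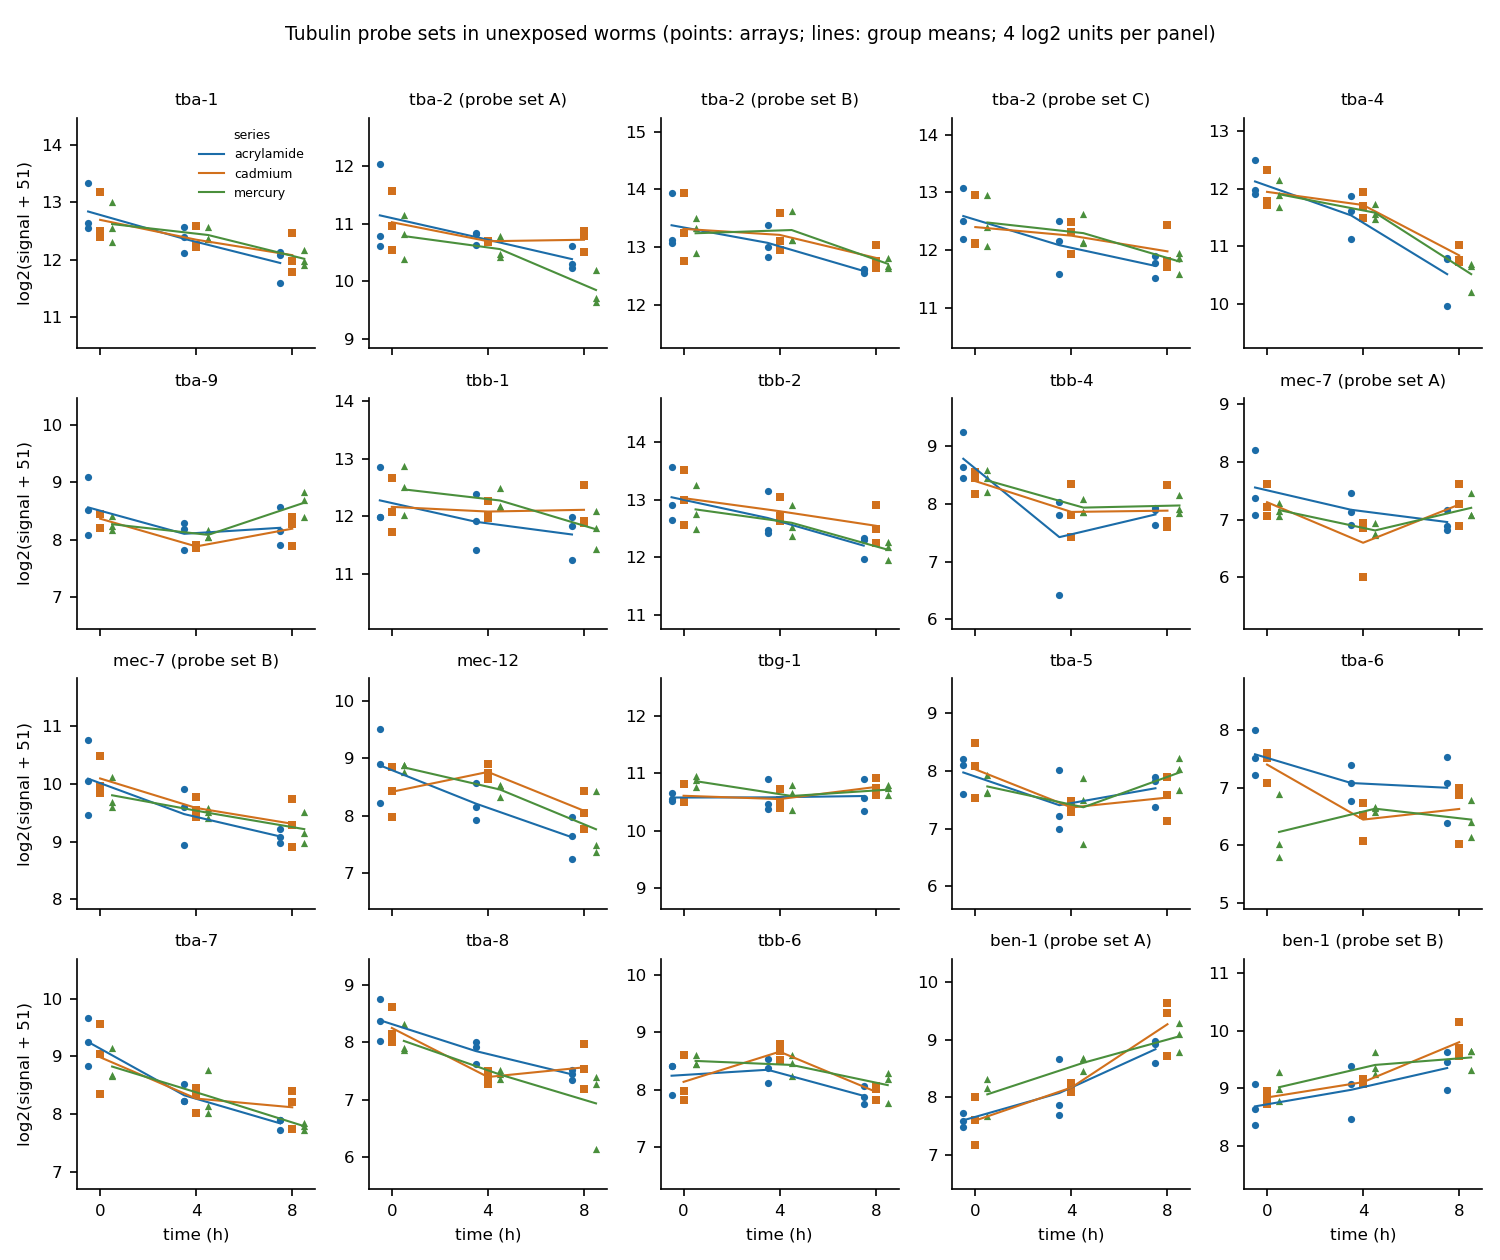
Signal of the member probe sets in the unexposed controls of the 3 series at 0, 4 and 8 h, on a log2 axis. tba-4 has the steepest course (change -1.37 over 8 h), and tbg-1 is level at 0.01 under median centring but is called higher under the 3 other scalings.

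These falls stand beside a shift of the whole array. The median over all probe sets tested was -0.16 under median centring and -0.49 for the brightest 10% of probe sets, of which 64.7% were called lower. It was 0.127 under the authors' scaling, -0.095 under quantile normalization and 0.15 with centring on the brightest 10%. Relative to the median of all probe sets, 10 of the 13 member probe sets lay below it and 2 above it in all 4 scalings, and tbb-1 was the one whose sign turned. tba-4 lay at -1.21, -1.12, -0.87 and -1.12 relative to that median, mec-12 at -0.72, -0.70, -0.76 and -0.69, and tbg-1 at 0.17, 0.25, 0.39 and 0.25.

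The steps from 0 h to 4 h and from 4 h to 8 h were tested as well. From 0 h to 4 h, 4 probe sets of 3 genes were lower, against 22.7% of all probe sets called lower (35% in either direction). All were neuronal: tbb-4 by -0.79 (adjusted p = 1.75e-05, limma), tba-9 by -0.38 and mec-7 by -0.48 at both probe sets. Probe set A of mec-7 is dim, with a median signal of 83.7 over all arrays and a signal above 131 in only 7 arrays. Its equal change is thus not a firm second reading of mec-7. From 4 h to 8 h 15.9% of all probe sets were called lower and 10.9% higher. Of the member probe sets 5 were lower: tba-4 (-0.99, adjusted p = 2.33e-06, limma), mec-12 (-0.65), probe set B of tba-2 (-0.49), tbb-2 (-0.40) and tba-1 (-0.37). tba-9 was higher in that step by 0.32 (adjusted p = 0.0413, limma). With other scalings 1 to 4 probe sets were lower in the earlier step and 3 to 4 in the later one, and tba-4, mec-12 and probe set B of tba-2 were lower and tba-9 higher in the later step under each. Whether the steps differ was not tested.

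Within single series the counts varied. Between 0 h and 8 h, 9 of 12 tested probe sets (7 genes) were lower in the acrylamide controls, against 23.9% of all probe sets called lower. In the cadmium controls tba-4 was the 1 lower probe set of 13, against 9%, by -1.1 (SE 0.31, adjusted p = 0.0115, limma). In the mercury controls 10 of 12 (8 genes) were lower, against 28.9%. In either direction 34.6%, 20% and 40.9% of all probe sets were called. Other scalings moved these counts. Under the authors' scaling 0, 2 and 5 were lower, under quantile normalization 4, 5 and 4, and under centring on the brightest 10% 1, 1 and 2. The acrylamide control at 0 h includes the array whose trimmed mean was 213.2, where the other 79 lay between 493.5 and 497.4.

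The main comparison sets each dose against the control of the same chemical and time. Over 18 such comparisons there were 222 tests of member probe sets, of which 13 were called lower and 1 higher. The low doses gave 0 calls in 74 limma tests (5 at an unadjusted p under 0.05), the mid doses 3 lower and 1 higher in 74 (11 unadjusted), and the high doses 10 lower in 74 (29 unadjusted). The background of calls in either direction at the low doses was 0.157% and 0.326% for acrylamide at 4 and 8 h, 0.61% and 0.29% for cadmium, and 2.69% and 0.699% for mercury. In the same order it was 1.6%, 2.4%, 14.9%, 2.01%, 16.3% and 17.7% at the mid doses. At the high doses it was 6.16%, 8.77%, 7.09%, 6.43%, 22.4% and 31.1%. The larger number of member calls at the high than at the low doses thus stands beside a rise over all probe sets. Single member changes at the low doses ran from -0.49 to 0.48.

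**Figure D3:**
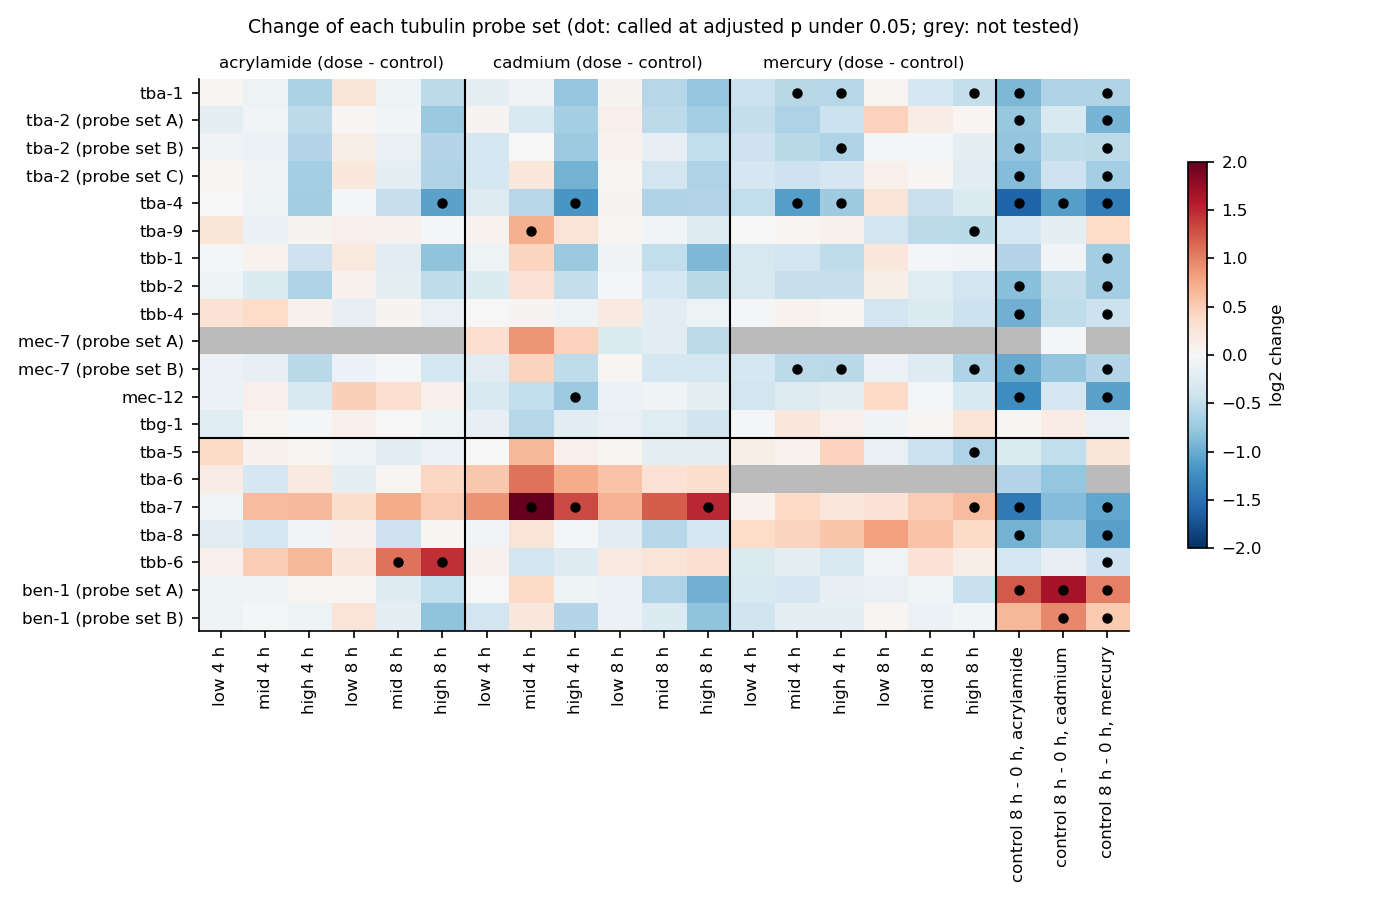
Log2 change of each tubulin probe set (rows) in the 18 comparisons of a dose with its control and in the 3 comparisons of controls at 8 h with 0 h (columns), with dots for calls and grey for probe sets not tested. The general isotypes are below 0 in all 6 high-dose comparisons under all 4 scalings, except probe set A of tba-2 in mercury at 8 h (0.04 here, with a sign that turns between scalings), and tba-7 is above 0 in all 6.

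High acrylamide lowered tba-4 at 8 h. Its signals were 409.6, 711.7 and 911.4, against 950.5, 1741 and 1706 in the control. The highest exposed array lay just under the lowest control array. tba-4 changed by -1.07 (SE 0.31, confidence interval -1.71 to -0.44), 2.1-fold lower, with adjusted p = 0.0281 in limma. It was the 1 called probe set of 12, against 4.61% of all probe sets called lower (8.77% in either direction).

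That call depended on single arrays and on the scaling. Leaving out exposed replicate 1 or 2 or control replicate 2 or 3 ended it, with changes of tba-4 of -0.78, -1.14, -0.93 and -0.94 (adjusted p = 0.167, 0.0583, 0.121 and 0.128, limma). Under the authors' scaling tba-4 changed by -0.98 with adjusted p = 0.0811. tbb-1 came next at -0.80 (adjusted p = 0.052), with 1832, 2110 and 1626 in exposed worms against 3602, 2364 and 4006. It was not called, although the groups do not overlap.

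At 4 h of high acrylamide 0 of 12 probe sets were called by limma (5 at an unadjusted p under 0.05), against 6.16% of all probe sets. The median change of the members was -0.53 at 4 h and -0.51 at 8 h, with -0.06 over all probe sets tested at both times. Exposed arrays lay wholly below controls in 5 member probe sets at 4 h and in 6 at 8 h, a count that was not taken over all probe sets. Without replicate 2 of the control at 4 h, 1 member probe set was called there.

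High cadmium at 4 h lowered tba-4 and mec-12, 2 of 13 probe sets, against 4.26% of all called lower (7.09% in either direction). tba-4 read 1850, 2097 and 770.1 in exposed worms and 3904, 3296 and 2839 in the control. mec-12 read 199, 185.3 and 250 against 379.6, 346.2 and 427.3. Both groups are apart in both genes, and the tba-4 value of exposed replicate 3 is well under the other two. tba-4 changed by -1.17 (SE 0.31, adjusted p = 0.0198, limma), 2.25-fold lower, and mec-12 by -0.73 (SE 0.23, adjusted p = 0.047).

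Without exposed replicate 3 the change of tba-4 was -0.74 (adjusted p = 0.188), and without control replicate 1 or 2 it was -1.06 or -1.18 (adjusted p = 0.109 and 0.0612, limma). The call of mec-12 was lost when any 1 of the 6 arrays was left out, with changes between -0.84 and -0.66. It was also lost under the authors' scaling (-0.51), quantile normalization (-0.62) and centring on the brightest 10% of probe sets (-0.35).

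At 8 h of high cadmium 0 of 13 probe sets were called by limma (2 at an unadjusted p under 0.05), against 6.43% of all. All arrays of the exposed worms lay below all controls in 9 of the 13. The same count was not taken over all probe sets, so the 9 has no background to be read against. The 2 with an unadjusted p under 0.05 were tba-1 at -0.77 and tbb-1 at -0.90 (adjusted p = 0.177 and 0.179). tba-1 read 2761, 2772 and 2011 against 3998, 5629 and 3478.

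High mercury at 4 h lowered 4 of 12 probe sets, against 13.4% of all probe sets called lower (22.4% in either direction). tba-4 read 1327, 1938 and 2399 in exposed worms and 2956, 2783 and 3349 in the control. tba-2 (probe set B) read 5486, 6554 and 7526 against 12644, 8862 and 8896. tba-1 read 3464, 3639 and 3934 against 6034, 5202 and 5197. No exposed array reached the lowest control in any of the 3.

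tba-4 changed by -0.70 (SE 0.19, adjusted p = 0.00877, limma), tba-2 (probe set B) by -0.62 (SE 0.19, adjusted p = 0.018) and tba-1 by -0.57 (SE 0.18, adjusted p = 0.0263). The fourth was probe set B of the touch neuron β-tubulin mec-7, at 403.3, 380.1 and 587.1 against 681.7, 626.3 and 714.8. It changed by -0.53 (SE 0.17, adjusted p = 0.0199, limma), and its groups are apart as well. This probe set carries the suffix for possible cross-hybridization. Over the 27 group means, each series centred, it correlated at 0.96 with tbb-2 and at 0.46 with the dim mec-7 probe set. The other 2 probe sets of tba-2 changed by -0.43 and -0.34 and were not called.

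Leaving out replicate 1 of high mercury at 4 h ended all 4 calls, with changes of -0.48 for tba-4, -0.51 for tba-2, -0.52 for tba-1 and -0.47 for mec-7. Leaving out replicate 1 of the control ended those of tba-2 (-0.45), tba-1 (-0.50) and mec-7 (-0.53). Without exposed replicate 2 those of tba-1 (-0.56) and mec-7 (-0.43) were lost, and without control replicate 3 that of mec-7 (-0.49).

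The mid dose of mercury at 4 h gave the firmest change of a member under exposure. tba-4 read 1282, 1318 and 1532 against 2956, 2783 and 3349 in the control. The exposed arrays are close to each other and far below the control. tba-4 changed by -1.11 (SE 0.19, adjusted p = 0.000112, limma), 2.16-fold lower, and it remained called in all 12 alternative settings and in all 6 fits without 1 array. tba-1 (-0.55, adjusted p = 0.0401, limma) and mec-7 (-0.53, adjusted p = 0.0278) were lower too. That made 3 of 12, against 9.42% of all probe sets called lower (16.3% in either direction).

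The calls of tba-1 and mec-7 at mid mercury rested on the settings and on single arrays. In 12 alternative settings the tba-1 call held in 9, with changes from -0.55 to -0.20 (highest adjusted p = 0.647, limma). The mec-7 call held in 10 of the 12, with changes from -0.58 to -0.38 (highest adjusted p = 0.259). That of tba-1 was lost without exposed replicate 2 or 3 or any control array, with changes between -0.58 and -0.40. That of mec-7 was lost without exposed replicate 2 or 3 or control replicate 1 or 3, with changes of -0.47, -0.50, -0.52 and -0.49.

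tba-4 in mercury at 4 h did not follow dose in order. The low dose read 1932, 2027 and 2475, all under the control, and lay between the mid and control values. The high dose, at 1327 to 2399, overlapped the low one. At 8 h of high mercury tba-4 read 1070, 988.5 and 1490 against 1607, 1563 and 1129, which overlap, and changed by -0.27 (adjusted p = 0.307, limma).

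High mercury at 8 h lowered 3 of 12 probe sets, against 14% of all probe sets called lower (31.1% in either direction). mec-7 read 332.4, 308 and 376.1 against 681.8, 518.8 and 454.2 and changed by -0.61 (SE 0.17, adjusted p = 0.0055, limma). tba-9 read 224.9, 189.2 and 265.1 against 364.2, 286.6 and 406.9 and changed by -0.54 (SE 0.20, adjusted p = 0.044). tba-1 read 2492, 3406 and 2948 against 3970, 4528 and 3809 and changed by -0.48 (SE 0.18, adjusted p = 0.0496). In all 3 genes the exposed arrays are below the controls without overlap.

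mec-7 lost its call at 8 h only without control replicate 1 (-0.46, adjusted p = 0.0572, limma), among the 6 arrays left out in turn. tba-9 lost it without exposed replicate 1 or 2 (-0.54 and -0.44) or control replicate 1 or 3 (-0.51 and -0.44). tba-1 kept it only without exposed replicate 2, and the other 5 fits gave changes between -0.53 and -0.36. The cilium β-tubulin tbb-4 stood just outside the threshold, at 146.3, 144.8 and 117.6 against 178.7, 235.6 and 190.8 (change -0.43, adjusted p = 0.0552). tbg-1 had all exposed arrays above the controls, at 1773, 2087 and 2038 against 1656, 1720 and 1516, but its change of 0.26 was not called (adjusted p = 0.241).

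The 1 higher call of 13 probe sets was tba-9 at mid cadmium, 4 h, against 4.49% of all called higher (14.9% in either direction). Its 2 exposed arrays read 359.9 and 310.7, and the controls read 180.7, 189.7 and 186.2. Both lay above all controls. tba-9 changed by 0.70 (SE 0.20, adjusted p = 0.0237, limma), a call lost without exposed replicate 1 (0.61) or without any 1 of the control arrays (0.69 to 0.72). tba-9 also lost it with arrays centred on the brightest 10% of probe sets (0.71, adjusted p = 0.109, limma), with array weights (0.69, adjusted p = 0.574) and with only the groups compared in the fit (0.70, adjusted p = 0.28). The remaining mid-dose comparisons had 0 member calls in limma: acrylamide at 4 h and 8 h against 1.6% and 2.4% of all probe sets, cadmium at 8 h against 2.01% and mercury at 8 h against 17.7%. Of these, only mercury at 8 h had member probe sets at an unadjusted p under 0.05, namely 2.

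The member counts at the high doses moved with the scaling. In the order acrylamide 4 h and 8 h, cadmium 4 h and 8 h, and mercury 4 h and 8 h, the lower calls were 0, 1, 2, 0, 4 and 3 under median centring. They were 0, 0, 1, 0, 5 and 5 under the authors' scaling, 0, 2, 2, 2, 5 and 5 under quantile normalization, and 0, 1, 1, 0, 3 and 3 with centring on the brightest 10% of probe sets. No scaling gave a higher member call in these 6 comparisons. The member median stayed below 0 in all 4 scalings of each, between -0.67 (cadmium 4 h, median centring) and -0.24 (mercury 8 h, brightest 10%). Relative to the median of all probe sets, 9, 9, 9, 12, 9 and 10 of the tested member probe sets lay below it in all 4 scalings. The medians of all probe sets tested were -0.06, -0.06, -0.12, -0.12, -0.05 and 0.01, and those of the brightest 10% of probe sets were -0.24, -0.24, -0.47, -0.28, -0.20 and -0.12.

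General and neuronal isotypes were then set side by side, with 1 probe set for each gene. The median change of the 5 general genes was -0.62 and -0.59 at high acrylamide (4 h and 8 h), -0.75 and -0.59 at high cadmium and -0.57 and -0.27 at high mercury. That of the 4 neuronal genes was -0.13 and -0.09, -0.29 and -0.22, and -0.08 and -0.48. The general genes had the lower median in 5 of the 6 comparisons and the neuronal ones in mercury at 8 h. In the controls between 0 h and 8 h the medians were -0.67 and -0.72. The difference between the classes was not tested, and changes of signal plus 51 are understated for the neuronal genes near the filter.

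In the summed signal of the general genes, the acrylamide arrays at 8 h ran from 18374 to 21217 in controls and from 10942 to 13976 at the high dose. Cadmium at 8 h ran from 20409 to 29162 in controls and from 12026 to 17084 at the high dose, and mercury from 17911 to 22104 and from 13559 to 19006. Only the mercury ranges overlap. For the neuronal genes acrylamide at 8 h ran from 1031 to 1117 in controls and from 737.1 to 1172 at the high dose, which overlap, and cadmium from 1070 to 1576 and from 941.1 to 1058, which do not. Mercury at 8 h ran from 1155.7 to 1520.4 in controls and from 749.4 to 913 at the high dose, which do not overlap. Among the neuronal genes summed here, mec-7 (probe set B) has the highest median signal over all arrays, 530.

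Differences between the chemicals were tested directly, each high-dose change against its own control, in the fit of all arrays. No member was called in any of the 6 contrasts (3 at an unadjusted p under 0.05, limma). The background was 1.63% for cadmium less mercury, 2.03% for cadmium less acrylamide and 2.67% for mercury less acrylamide at 4 h, and 3.35%, 2.42% and 3.33% at 8 h. For tba-4 at 8 h, mercury less acrylamide was 0.80 (95% confidence interval 0.01 to 1.59, adjusted p = 0.395). For tbb-1 at 8 h, cadmium less mercury was -0.85 (-1.68 to -0.02), and for tbg-1 it was -0.65 (-1.19 to -0.12). These intervals are wide, and the arrays do not narrow the differences further.

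The change at 8 h less that at 4 h was not called for any member in the 3 series (0, 1 and 1 at an unadjusted p under 0.05, limma), against 0%, 0.234% and 0.793% of all probe sets. For tba-4 it was -0.38 (95% confidence interval -1.28 to 0.52) in acrylamide, 0.58 (-0.33 to 1.48) in cadmium and 0.43 (-0.13 to 1.00) in mercury.

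One sign of RNA quality, the actin ratio, was higher by more than the SD of either group at 4 of the 6 high-dose groups. The log2 ratio of the 3′ to the 5′ actin probe set was 1.53 (SD 0.13, n = 3) at high mercury, 8 h, against 1.01 (SD 0.10) in its control, and 1.31 (SD 0.13) against 0.85 (SD 0.08) at 4 h. It was 1.31 (SD 0.17) against 0.97 (SD 0.10) at high acrylamide, 8 h, and 1.07 (SD 0.31) against 0.65 (SD 0.18) at high cadmium, 4 h. At the other two it was 0.93 (SD 0.37) against 0.86 (SD 0.25), for high acrylamide at 4 h, and 1.1 (SD 0.38) against 0.88 (SD 0.25), for high cadmium at 8 h. The same ratio for GAPDH was 0.056 (SD 0.053) against 0.041 (SD 0.11) at high mercury, 4 h, and 0.163 (SD 0.15) against 0.165 (SD 0.047) at 8 h. With high cadmium it was 0.113 (SD 0.066) against 0.002 (SD 0.094) at 4 h and 0.072 (SD 0.18) against 0.010 (SD 0.059) at 8 h. With high acrylamide it was 0.125 (SD 0.11) against 0.106 (SD 0.040) at 4 h and -0.022 (SD 0.26) against 0.074 (SD 0.064) at 8 h. With the actin ratio as a covariate, 0 members were called by limma in the 4 comparisons where that ratio was higher. There the ratio differed between exposed worms and controls, so such a fit cannot separate it from the exposure. The fit was also less precise. The median SE of the members went from 0.26 to 0.29 at acrylamide, 8 h, and from 0.31 to 0.35 at cadmium, 4 h. At mercury it went from 0.19 to 0.25 at 4 h and from 0.19 to 0.27 at 8 h. The median member change went from -0.51 to -0.45 at acrylamide, 8 h, from -0.67 to -0.61 at cadmium, 4 h, and from -0.44 to -0.10 at mercury, 4 h, and it turned from -0.29 to 0.09 at mercury, 8 h. Calls over all probe sets fell as well, from 4937 to 2558 at high mercury, 8 h, and from 3556 to 1208 at 4 h. At mid mercury the actin ratio was 1.19 (SD 0.28) against 0.85 (SD 0.08) at 4 h and 1.34 (SD 0.05) against 1.01 (SD 0.10) at 8 h. With the covariate the tba-4 change at mid mercury, 4 h, was -1.14 and still called (adjusted p = 0.00206, limma). The fall of the controls kept its 10 calls. How much the RNA quality contributed to the changes was not tested.

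Among the other 6 tubulin genes, tba-7, an α-tubulin, rose with cadmium. At 4 h it read 273.7, 208.1 and 297.3 in the control, 1821 and 834.5 after the mid dose and 1016, 1044 and 345.7 after the high one. At 8 h it read 286.8, 161.8 and 246.5 in the control and 795.7, 774.6 and 648.1 at the high dose. All exposed arrays lay above all controls in each of the 3 comparisons.

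tba-7 changed by 2.06 (SE 0.41, adjusted p = 0.0021, limma, 4.18-fold) at mid cadmium, 4 h, with n = 2. It changed by 1.33 (SE 0.37, adjusted p = 0.0247, 2.51-fold) at high cadmium, 4 h, and by 1.5 (SE 0.37, adjusted p = 0.0104, 2.84-fold) at 8 h. The mid dose at 8 h, 678.5, 691.9 and 444.5, gave 1.22 and was not called (adjusted p = 0.094).

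The calls of tba-7 were sensitive to single arrays at 4 h. The mid-dose call was lost without exposed replicate 1 (1.52, adjusted p = 0.119, limma). The high-dose call at 4 h was lost without exposed replicate 1 or 2 (1.1 and 1.08) or control replicate 1 or 2 (1.37 and 1.2), and at 8 h without control replicate 2 (1.31, adjusted p = 0.0794). With the 2 arrays of cadmium mid at 4 h left out, the adjusted p of tba-7 was 0.0122 at 4 h and 0.00483 at 8 h.

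At high mercury, 8 h, tba-7 read 267.9, 308.7 and 301.6 against 171.6, 178 and 160.9. It rose there by 0.63 (SE 0.20, adjusted p = 0.0154, limma), a call lost without exposed replicate 2 (0.60). At high acrylamide its changes of 0.64 (4 h, adjusted p = 0.182) and 0.51 (8 h, adjusted p = 0.273) were not called, though exposed arrays lay above all controls. Cadmium less mercury for tba-7 was 1.1 (95% confidence interval 0.27 to 1.94, adjusted p = 0.294) at 4 h and 0.87 (0.04 to 1.70, adjusted p = 0.339) at 8 h, neither called.

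tbb-6, a β-tubulin whose promoter has served as a reporter of mitochondrial disruption, rose with acrylamide. At 8 h it read 165, 183.2 and 216.2 in the control, 294.9, 454.1 and 677.7 after the mid dose and 421.7, 683.8 and 754.9 after the high one. Every exposed array was above every control. tbb-6 changed by 1.08 (SE 0.26, adjusted p = 0.0174, limma, 2.11-fold) with 500 mg/L and by 1.46 (SE 0.26, adjusted p = 0.000334, 2.75-fold) with 1000 mg/L.

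The high-dose call of tbb-6 held in all 13 settings and all 7 fits without 1 array. The mid-dose call was lost without exposed replicate 2 or 3 (1.08 and 0.81) or control replicate 1 or 2 (1.01 and 1.07). At 4 h of high acrylamide tbb-6 read 446.5, 612.7 and 365.6 against 320.1, 228.3 and 283.5 and changed by 0.66, which was not called (adjusted p = 0.15).

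The tbb-6 response at 8 h was compared between the chemicals. High cadmium gave 302.5, 259.5 and 238 against 215.7, 176.3 and 207.9, and high mercury 209.1, 248.9 and 282.7 against 239.5, 167.4 and 262.9. The change with cadmium was 1.12 lower on the log2 scale than that with acrylamide, at -1.12 (SE 0.32, adjusted p = 0.0339, limma), and that with mercury was lower by -1.33 (SE 0.32, adjusted p = 0.00504). At 4 h the same differences were -0.91 and -0.98 and not called (adjusted p = 0.174 and 0.0844). The cadmium difference was not called (-1.11 to -0.97) without any 1 of 8 arrays out of 13, namely replicates 2 and 3 of high cadmium and of high acrylamide, 1 and 3 of the cadmium control and 1 and 2 of the acrylamide control.

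**Figure D4:**
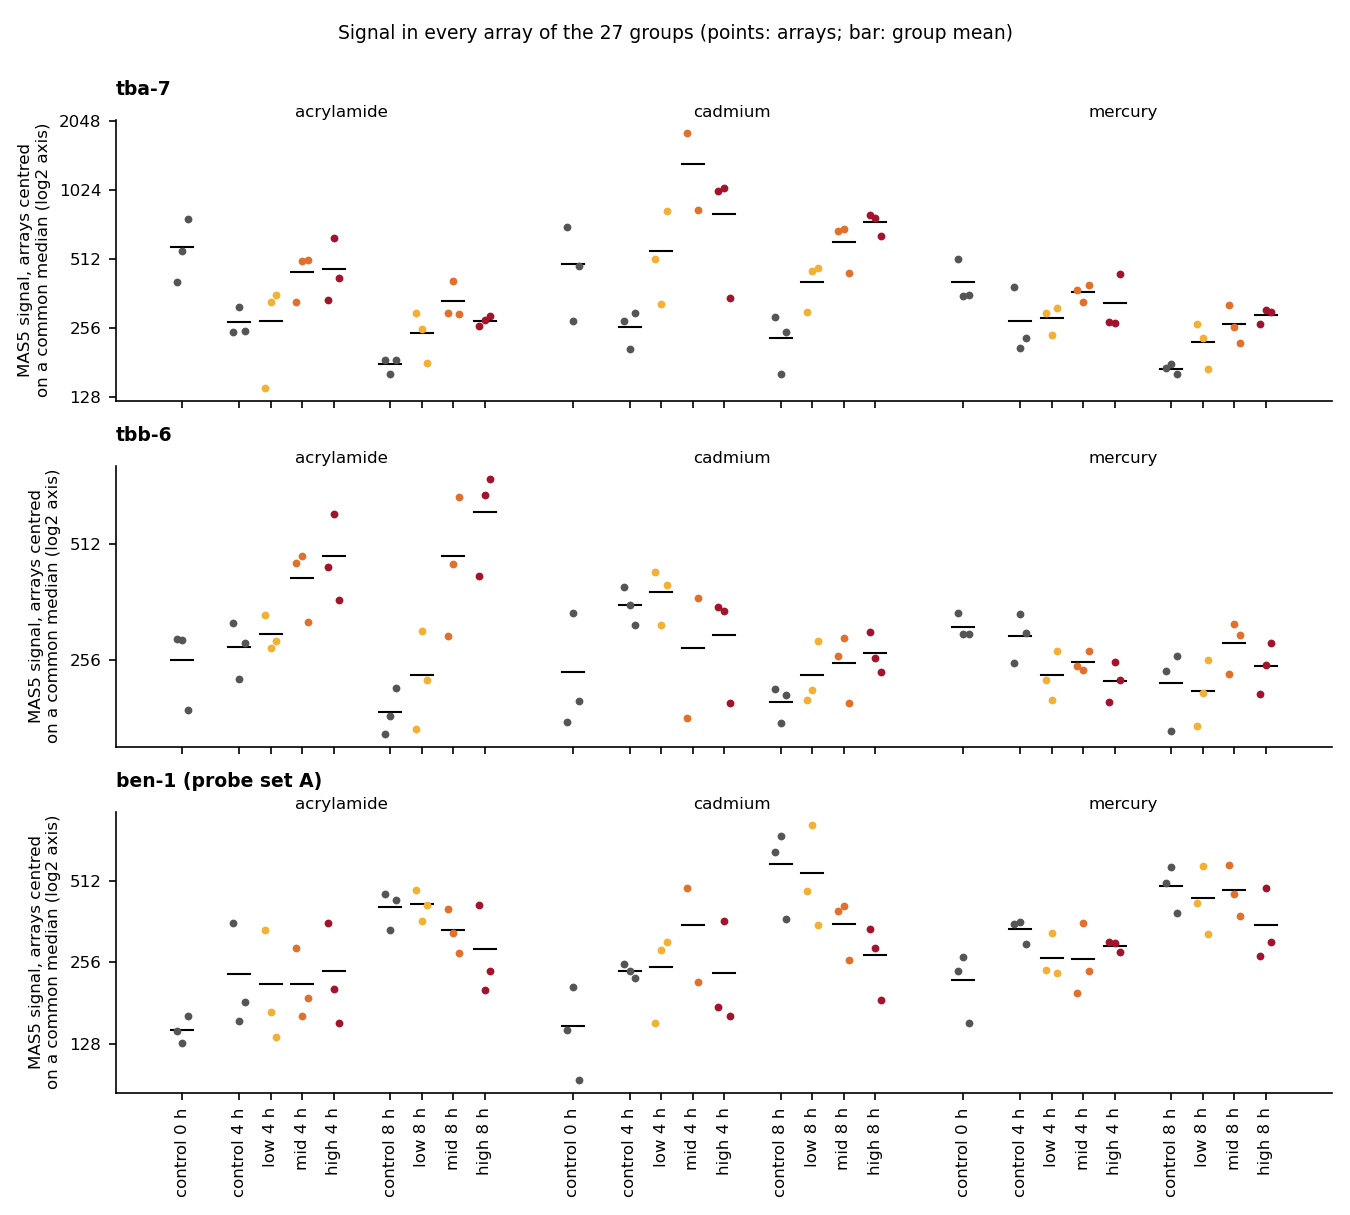
Signal of tba-7, tbb-6 and ben-1 (probe set A) in every array (points) of the 27 groups, on a log2 axis, with bars at the group means. tba-7 reaches 1821 at mid cadmium, 4 h, tbb-6 reaches 754.9 at high acrylamide, 8 h, and ben-1 rises in the controls of all 3 series between 0 h and 8 h.

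ben-1, the β-tubulin that benzimidazole drugs act on, ran opposite to the members in the controls. Its probe set A read 142.3, 128.1 and 161.2 at 0 h and 456.1, 337.4 and 433.6 at 8 h in the acrylamide controls. In the cadmium controls it read 143.2, 207.5 and 93.97 and then 653.8, 745.9 and 367.8. The groups were apart in all 3 series. Over the 3 series ben-1 rose by 1.3 (SE 0.17, adjusted p = 3.01e-09, limma) and by 0.71 (SE 0.15, adjusted p = 5.85e-05) at its other probe set.

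Over the same time tba-7 fell, changing by -1.11 (SE 0.17, adjusted p = 1.36e-07, limma), and so did tba-8 at -0.90 (SE 0.14, adjusted p = 1.21e-07). The signal of tba-8 exceeded 131 in 43 of 80 arrays. tbb-6 was called lower at -0.31 (adjusted p = 0.0365), a value that turned to 0.011 when arrays were centred on the brightest 10% of probe sets and whose call was lost without any 1 of 8 control arrays out of 18 (-0.31 to -0.24). These were replicates 1 and 2 of acrylamide and 2 of cadmium and of mercury at 8 h, and replicates 1 and 2 of acrylamide, 2 of cadmium and 1 of mercury at 0 h. tba-5 (-0.17, above 131 in 46 of 80 arrays) and the dim tba-6 (-0.38, above 131 in 11 of 80 arrays) were not called. tba-5, an α-tubulin of sensory cilia, was lower at high mercury, 8 h, with 129.5, 106.1 and 103.8 against 246.5, 211.3 and 152.6. Its change there was -0.62 (SE 0.23, adjusted p = 0.0393), lost without exposed replicate 2 or 3 (-0.59 and -0.58) or control replicate 1 or 2 (-0.50 and -0.59).

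Proteins that fold, modify, organise or use microtubules were described by lists, with 1 probe set per gene. Of all probe sets, 16.1% were called higher and 35% lower in the controls, 8 h against 0 h, and 17.1% higher and 14% lower at high mercury, 8 h. The folding list holds the chaperonin CCT, prefoldin and the tubulin cofactors. In the controls between 0 h and 8 h, 13 of its 20 tested genes fell and 2 rose, with a median of -0.47 beside -0.15 over all genes. The prefoldin subunit pfd-2 fell by 0.82 (adjusted p = 1.88e-05, limma), the chaperonin subunit cct-2 by 0.59 (adjusted p = 9.46e-05) and the tubulin cofactor tbca-1 by 0.89 (adjusted p = 0.000204).

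At high mercury, 8 h, 5 of 19 folding genes rose and 1 fell, beside 31.1% of all probe sets called, with a median of 0.28. cct-4 rose by 0.67 (adjusted p = 0.0046, limma), pfd-5 by 0.57 (adjusted p = 0.00588), tbca-1 by 0.57 (adjusted p = 0.0149) and coel-1, an E-like tubulin cofactor, by 0.77 (adjusted p = 0.00777). At 4 h of high mercury coel-1 rose by 0.78 (adjusted p = 0.00946) and the prefoldin subunits pfd-6 and pfd-4 fell by 0.48 and 0.42 (adjusted p = 0.0306 and 0.0368). High acrylamide at 8 h lowered pfd-6 by 0.82 (adjusted p = 0.0239), and none was called at 4 h of acrylamide or with high cadmium.

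Of the tubulin-modifying enzymes, ttll-12, of the tubulin tyrosine ligase-like family, rose by 2.5 (SE 0.23, adjusted p = 2.87e-09, limma) at high mercury, 4 h, and by 2.64 (SE 0.23, adjusted p = 8.39e-10) at 8 h. ttll-5 of the same family rose by 0.51 (adjusted p = 0.0235) at 8 h. No gene of that list was called with high acrylamide or high cadmium.

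In the controls atat-2, a tubulin acetyltransferase, fell by 2.20 (adjusted p = 2.41e-12, limma), mec-17, the acetyltransferase of touch neurons, by 0.73 (adjusted p = 2.39e-06) and ttll-12 by 0.51 (adjusted p = 0.00301). ccpp-1, a deglutamylase, rose by 0.36 (adjusted p = 0.0237). The list's median was -0.12.

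Of 14 microtubule-associated proteins 4 rose and 3 fell in the controls, beside 51% of all probe sets called. The end-binding protein ebp-2 changed by -0.74 (adjusted p = 1.02e-06, limma) and the katanin subunit mei-2 by 0.95. High acrylamide at 4 h raised ptl-1, the tau-like protein, by 1.04 (SE 0.30, adjusted p = 0.037). High cadmium at 8 h lowered 3, against 2.82% of all probe sets called lower. These were maph-1.2 by 1.36 (adjusted p = 0.013, limma), mei-2 by 1.45 (adjusted p = 0.0203) and maph-1.3 by 1.1 (adjusted p = 0.0241). The probe sets of all 3 carry the suffix for possible cross-hybridization. Whether maph-1.2 and maph-1.3 are separate readings was not tested. High mercury raised 1 and lowered 3 at 4 h, against 9.03% and 13.4% of all probe sets. At 8 h high mercury raised 2 and lowered 2, against 17.1% and 14%. With high mercury elp-1, an EMAP-like protein, fell by 0.62 and 0.46 at 4 h and 8 h. The spastin homologue spas-1 rose by 0.49 at both times, and mei-2 fell by 1.03 at 8 h (adjusted p = 6.66e-05, limma).

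Of 21 tested motor genes 6 rose and 6 fell in the controls, beside 51% of all probe sets called. The kinesin klp-15, needed for oocyte meiotic spindles and read by a probe set with the suffix for cross-hybridization, rose by 1.49 (adjusted p = 2.23e-10, limma). It was lower with all 3 chemicals: by -1.49 (adjusted p = 0.0111) at high acrylamide, 8 h, by -0.96 (adjusted p = 0.0437) and -1.52 (adjusted p = 0.00116) at high cadmium, 4 h and 8 h, and by -0.95 (adjusted p = 0.00154) and -1.73 (adjusted p = 3.61e-07) at high mercury. Beside the fall of klp-15, 6 of 19 motor genes rose at high mercury, 8 h, against 17.1% of all probe sets called higher. Among them were the dynein heavy chain dhc-1 by 0.97 (adjusted p = 0.000199, limma) and klp-11, a kinesin-II subunit, by 0.67 (adjusted p = 0.000993).

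The γ-tubulin partners and centrosome proteins had 4 of 11 higher and 2 lower in the controls, against 16.1% and 35% of all probe sets. sas-6, the centriole cartwheel protein, rose by 0.66 and the Aurora A kinase air-1 by 0.76, while gip-1, a γ-tubulin complex protein, fell by 0.58. None was called with high acrylamide or cadmium. High mercury lowered air-1 at both times, by 0.67 (adjusted p = 0.028, limma) and 0.59 (adjusted p = 0.0444), and raised gip-2 by 0.73 at 8 h (adjusted p = 0.0082).

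Markers of some cell types that use these tubulins also moved. Only the germline, neuron, touch neuron and body wall muscle lists are given, and the changes of the cilium and other lists are not. Of 18 germline and oocyte markers 14 rose in the controls, against 16.1% of all probe sets called higher. None fell, and their median was 0.99, opposite to the general tubulins. At 8 h 10 fell with high acrylamide (median -0.94), against 4.61% of all probe sets called lower. With high cadmium 10 of these markers fell (-1.09), against 2.82%. With high mercury 9 of them fell (-0.57), against 14%, and 2 rose, against 17.1%. Their summed signal ran from 28758 to 40334 in the cadmium controls at 8 h and from 13234 to 21096 at the high dose. In mercury it ran from 27328 to 33142 and from 15943 to 20667, and in acrylamide from 23462 to 31322 and from 13178 to 17127. Their part in the tubulin changes was not tested.

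Of 13 tested general neuron markers 8 fell in the controls and none rose (median -0.52), against 35% of all probe sets called lower. Of 8 touch neuron markers 2 fell, mec-17 and mec-18, against the same 35%. At high mercury, 8 h, where mec-7 and tba-9 were lower, 17.1% of all probe sets were called higher and 14% lower. There 5 neuron markers rose and none fell (median 0.46), among them the neuropeptide-processing enzyme egl-3 by 1.13 and the synaptotagmin snt-1 by 0.58. Their summed signal there was 11434 to 13296, against 7902 to 9056.9 in the control. The touch neuron marker mec-18 rose by 0.91 in the same comparison, and the summed touch neuron signal was 1734 to 2029 against 1375 to 1745. No tested marker of these lists had a signal of 0 in any array, but only 3 of 10 touch neuron and 6 of 21 cilium markers exceeded 131 in most arrays. Body wall muscle markers fell in 5 and rose in 1 of 9 at high mercury, 8 h, against 14% and 17.1% of all probe sets. Their sums were 18455 to 25444 against 39408 to 48730. Their part in the tubulin changes was not tested either.

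Finally the patterns over the 27 group means, with each series centred, were compared as a description. These points share controls and libraries. The 7 probe sets of the general isotypes followed each other closely, with Pearson's r between 0.81 and 0.96 in 21 pairs (median 0.91). All but that of tba-4 carry the suffix for possible cross-hybridization, and 3 of them read tba-2, so these are not separate readings. No background over other pairs was taken, and a gene outside the family, F37H8.5, reached 0.98 with tba-1. General with neuronal probe sets gave 0.12 to 0.96 in 35 pairs (median 0.59) and neuronal with neuronal 0.06 to 0.77 in 10 pairs (median 0.48). The touch neuron β-tubulin mec-7 (probe set B) was as like tbb-2 (0.96) as the general isotypes were like each other, and both probe sets carry the suffix for cross-hybridization.

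tbg-1 followed none of them, at -0.17 to 0.21 with the general and -0.22 to 0.11 with the neuronal probe sets. Of the other tubulins, tba-8 gave 0.51 to 0.65 with the general isotypes, tba-5 0.28 to 0.51, tba-7 -0.06 to 0.15, tbb-6 -0.32 to -0.14 and ben-1 -0.58 to 0.20. tba-5 was close to tba-9 (0.85).

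**Figure D5:**
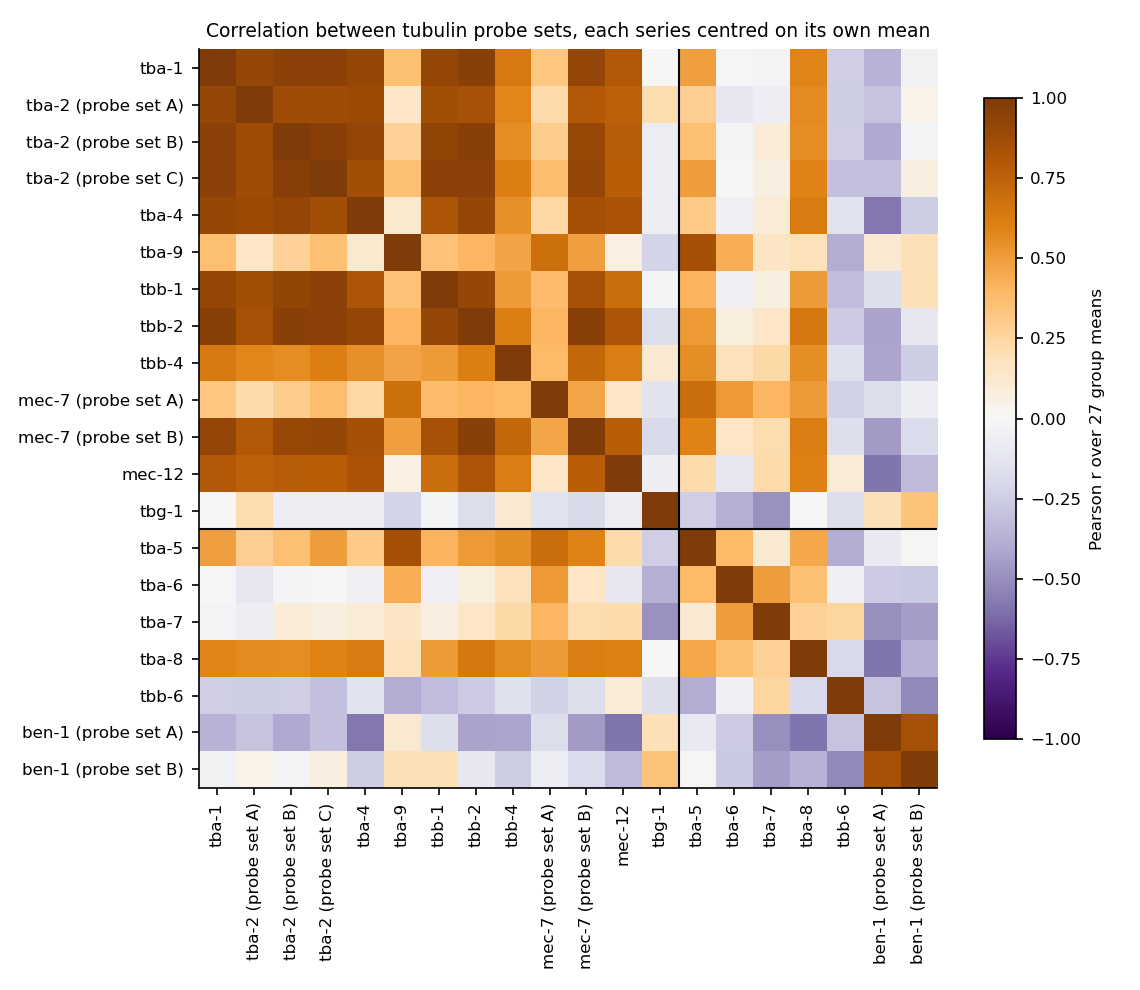
Pearson's r between tubulin probe sets over 27 group means, each series centred on its own mean (colour scale from -1 to 1). The general isotypes form a block of 0.81 to 0.96, and tbg-1, tba-7, tbb-6 and ben-1 stand outside it. In the block all probe sets but that of tba-4 carry the suffix for possible cross-hybridization.

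The genes most like each member were taken from 13643 genes by the same r over 27 group means. tba-1 was most like F37H8.5, asg-2 and ndab-1, all at 0.98. tba-4 was most like Y19D2B.1 and spcs-2 (0.97) and cdkr-3 (0.96), and tbb-1 like pdha-1, tfg-1 and snu-13 (0.95). tbb-2 was most like got-2.2 (0.97), atp-4 and cox-7C (0.96). For tba-2, probe set B was most like tfg-1, fkb-2 and tbb-2 (0.96), probe set C like tfg-1, F29B9.11 and cox-5B (0.97), and probe set A like slc-25A10 (0.95), R04F11.2 and ZK858.6 (0.93).

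Among the neuronal isotypes mec-7 (probe set B) was most like cisd-3.2 (0.98), cox-4 (0.97) and K10B2.4 (0.96), and the dim mec-7 probe set like dgn-2 and C14E2.4 (0.86) and srv-11 (0.85). mec-12 was most like aps-2 (0.92), Y45G5AM.6 (0.91) and K04G2.9 (0.89). tbb-4 was most like egl-4 (0.87), znf-207 (0.84) and tnc-2 (0.83), and tba-9 like F41H10.2 (0.87), tba-5 and sra-31 (0.85). tbg-1 was most like F30A10.3 (0.87), R11H6.2 (0.86) and smg-4 (0.84).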

How the data were processed

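The authors deposited a linear intensity for each probe set, the signal of MAS5 per the submitters' processing notes. From the values, 79 of 80 arrays share a trimmed mean, and the MAS5 version is not given in the sources used here. The 77 array controls among 22625 probe sets were not used. Genes were named from the platform annotation, in which 20766 of the other 22548 have 1 symbol, 887 several and 895 none.

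Each array was centred on a median of 202.9 (medians ran from 80.32, next 152.7, to 282.2), and log2(signal + 51) was taken, 51 being the 20th percentile of all signals. Testing required 3 or more arrays of the fit above 131, the 40th percentile, which 58.3% to 65.4% of probe sets did per array. Each series was fitted on its own (16542, 16225 and 15886 probe sets tested, residual degrees of freedom 18, 17 and 18), and the controls and chemicals were compared in a fit of all 80 arrays (17855, 53). limma 3.58.1 in R 4.3.3 was used with 1 mean per group and a variance trend, with Benjamini-Hochberg adjustment within each contrast. Fits were tested on simulated data. A gene in a list was represented by 1 probe set.

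Samples were grouped by their titles. The members and the 20 gene lists were chosen with earlier results of these data known. All member and other tubulin probe sets are described. Of other lists at most 4 called genes of lowest p per comparison are named, and for each member the 3 genes of highest r. Alternatives were other scalings, pseudocounts, filters, array weights, groups in the fit, a replicate block, the actin ratio as covariate and leaving out single arrays. Centring on the brightest 10% of probe sets, the authors' scaling without the dim 0 h array and cadmium fits without the mid dose at 4 h were added after the data were seen. Sequences and coordinates were not used here.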

Additional observations from a re-analysis of the deposited data

Results flagged for a closer look

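The change of tbb-6 at high dose, 8 h, differed between chemicals in a test of the difference itself in the fit of all arrays. It was -1.12 (SE 0.32, adjusted p = 0.0339, limma) for cadmium less acrylamide and -1.33 (SE 0.32, adjusted p = 0.00504) for mercury less acrylamide. All 3 acrylamide arrays of tbb-6, at 421.7, 683.8 and 754.9, lay above its highest control of 216.2. The mercury difference stayed called in all 14 settings and in all 13 fits without 1 array. The cadmium difference stayed called in 11 of 14 settings and 5 of 13 such fits.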

How the results depend on the processing

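For 38 changes of single probe sets, 917 alternative values kept direction and side of the threshold in 768, missed the threshold in 147 and turned sign in 2. The latter were tba-1 at high mercury, 8 h, with the actin ratio as covariate (0.076, adjusted p = 0.868, limma), and tbb-6 in the controls, 8 h against 0 h, with arrays centred on the brightest 10% of probe sets (0.011, adjusted p = 0.960). Of 248 recounted member calls 204 stayed within 1.5 times or were equal. At high acrylamide, 8 h, the 1 call became 0 under the authors' scaling, with only the groups compared in the fit or with the actin covariate, 2 with quantile normalization, the 60th percentile filter or the authors' scaling without the dim 0 h array, and 4 with array weights. At high cadmium, 4 h, the 2 calls became 1 under the authors' scaling, with no pseudocount, a pseudocount at the 10th percentile, no filter, no variance trend, only the groups compared or centring on the brightest 10%, 0 with the actin covariate and 4 with array weights. At high cadmium, 8 h, the 0 calls became 2 with quantile normalization, 5 with array weights and 1 with only the groups compared. The 4 calls at high mercury, 4 h, became 0 with the actin covariate. The 3 at 8 h became 5 under the authors' scaling and quantile normalization, 1 with no filter and 0 with the actin covariate. The 10 in the controls, all lower, became 5 under the authors' scaling, 4 lower and 1 (tbg-1) higher. The 0 calls between chemicals became 2 with array weights. The causes were not tested.

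With 1 array left out, calls ran from 0 to 1 and 0 to 2 at high acrylamide (4 h and 8 h), 0 to 1 and 0 to 0 at high cadmium, 0 to 4 and 0 to 2 at high mercury, 9 to 10 in the controls, and 0 to 0 both between chemicals and for 8 h less 4 h. The deviations of same-numbered arrays correlated at -0.312 to 0.661 (median 0.273, over 0.1 in 37 of 53 pairs), and 39 of 53 correlated best with their own number, a hint from the data and not the design. With the replicate block the calls were 0 and 3 at high acrylamide, 2 and 0 at high cadmium, 5 and 4 at high mercury, 10 in the controls, and 0 in both sets of differences. Dim probe sets, among them tba-6, 1 of mec-7, tba-5, tba-8, ptl-1 and atat-2, lie near the filter, where the signal limits what can be seen. The member medians with the mean of all probe sets per gene were -0.05 for the neuronal isotypes at high cadmium, 4 h, in place of -0.29, and -0.57 in the controls in place of -0.72.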
